A study of Homo sapiens with 14 samples.

Results

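The 38 genes described here belong to the ATF4 pathway and the unfolded protein response, and were picked by symbol from the 60683 Ensembl gene identifiers in each count table. They comprised 3 stress sensors, 9 transcription factors and regulators, 6 enzymes of serine, glycine, asparagine and one-carbon synthesis, 3 other ATF4 targets, 13 chaperones and co-chaperones of the endoplasmic reticulum (ER), and 4 genes of ER-associated degradation. The mRNA of 2 human cancer cell lines was sequenced in 7 groups of 2 libraries, 14 in all. A549, a lung cancer line, was kept untreated or was given 2 µM palbociclib, 0.5 µM indisulam or both compounds for 10 days, or 0.5 µM PF-06873600 for 7 days. SUM159, a triple negative breast cancer line, was kept untreated or was given 0.5 µM PF-06873600 for 7 days. Palbociclib inhibits the cell cycle kinases CDK4 and CDK6, indisulam leads to degradation of the splicing factor RBM39, and PF-06873600 inhibits CDK2, CDK4 and CDK6. A549 grew in RPMI and SUM159 in DMEM/F12 with insulin and hydrocortisone, so line and medium cannot be told apart. The submitters call the 2 libraries of a group technical duplicates, so every p-value below measures the spread between these libraries only, which may be technical. When the untreated cells were harvested is not given in the sources used here.

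Stress in the ER is sensed by PERK (encoded by EIF2AK3), IRE1 (ERN1) and ATF6. PERK phosphorylates the translation factor eIF2, which slows protein synthesis in general while the ATF4 mRNA is translated more, and ATF4 then drives genes of amino acid supply and of stress signalling, such as DDIT3 (CHOP) and TRIB3. IRE1 splices the XBP1 mRNA and ATF6 is cut to release a transcription factor, and both routes raise chaperones such as BiP (HSPA5) and components that remove misfolded proteins. Amino acid shortage reaches ATF4 through other eIF2 kinases without ER stress. Counts of mRNA per gene show neither the translation of ATF4 nor the splicing of XBP1.

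The arms of the response are known for different DNA elements, which were searched for upstream of the members. RefSeq entries on GRCh38.p14 gave the 250 bases upstream of the start for 35 of the 38 members, with PSPH, SHMT2 and NUPR1 named only. Both strands were searched. The ER stress response element, CCAAT and CCACG with 9 bases between them, is bound by ATF6 together with the factor NF-Y. It was found 7 times in 6 members, against 0.0806% of 27305 promoters searched. The element was found in some of the chaperones, not in all, and in the regulator XBP1. The copies are shown in the direction CCAAT to CCACG, with capitals for the fixed letters:
HSPA5: CCAATcggcggcctCCACG
HSP90B1, far: CCAATcggaaggagCCACG
HSP90B1, near: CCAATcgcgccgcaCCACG
CALR: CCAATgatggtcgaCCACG
CANX: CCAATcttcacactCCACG
CRELD2: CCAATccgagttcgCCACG
XBP1: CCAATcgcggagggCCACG
They lie at chr9:125241391-125241409 (HSPA5), chr12:103930216-103930234 and chr12:103930321-103930339 (HSP90B1), chr19:12938384-12938402 (CALR), chr5:179698778-179698796 (CANX), chr22:49918554-49918572 (CRELD2) and chr22:28800603-28800621 (XBP1). HSPA5 and XBP1 are on the minus strand and the others on the plus strand. The element read against its gene in CALR, CRELD2 and the near copy of HSP90B1.

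A second form, ATTGG and CCACG with 1 base between them, was present in HERPUD1, HYOU1 (2 copies) and SDF2L1, against 0.0513% of promoters. The C/EBP-ATF response element TGATGCAA, through which ATF4 acts, was present in CHAC1 and HERPUD1, against 0.820% of promoters. The unfolded protein response element TGACGTGG was found in HYOU1, where it overlaps the far copy of the second form, against 0.667% of promoters. HERPUD1, a component of ER-associated degradation, thus held both a C/EBP-ATF element and an ER stress element of the second form. Its upstream sequence at chr16:56931892-56932141 (plus strand) is shown with the C/EBP-ATF element and then the ER stress element in capitals:
HERPUD1: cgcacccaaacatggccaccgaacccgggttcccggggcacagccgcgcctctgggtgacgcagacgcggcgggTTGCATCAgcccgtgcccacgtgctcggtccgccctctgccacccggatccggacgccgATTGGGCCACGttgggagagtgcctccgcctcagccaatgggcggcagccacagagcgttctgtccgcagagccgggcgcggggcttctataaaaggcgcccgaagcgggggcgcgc
The HSPA5 sequence at chr9:125241383-125241593 (minus strand, 211 bases outside annotated exons) is shown as the chaperone promoter against which the others can be read:
HSPA5: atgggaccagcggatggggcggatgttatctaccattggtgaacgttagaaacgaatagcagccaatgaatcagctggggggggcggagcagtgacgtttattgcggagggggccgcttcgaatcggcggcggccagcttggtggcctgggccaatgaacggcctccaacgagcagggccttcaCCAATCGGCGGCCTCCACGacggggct
These matches are descriptions of letters in a window. An absent match says nothing of the factor.

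Libraries held 13060374 to 21149256 counts on genes, and levels are given as counts per 1000000 counts of that total (CPM), on which the limit of 3 counts lay between 0.142 and 0.230 CPM, counting error only. Replicate libraries differed by more than counting noise in every group (chi-square per degree of freedom 1.61 to 9.57, highest in the untreated groups). Each edgeR fit described below pools the spread of a gene over all its groups, so it may understate that of the untreated groups. In A549 the epithelial markers KRT8 and CDH1 were expressed, whereas the alveolar markers SFTPC, SFTPB and NKX2-1 summed to 0.772 CPM at most. The whole list of 5 epithelial markers summed to 6236 and 5371 CPM in untreated A549 and 2676 and 2532 CPM in untreated SUM159. Of these, KRT8, KRT18, EPCAM and CDH1 were lower in untreated SUM159 than in untreated A549, and KRT7 was higher (log2 0.94). In SUM159 the mesenchymal marker VIM was at 3609 CPM or more, and ESR1 and PGR summed to 0.662 CPM at most. The summed level of 6 proliferation genes was lower with treatment in both lines, going from 586 and 624 CPM in untreated A549 to 488 and 465 with palbociclib, 474 and 489 with indisulam, 116 and 120 with the combination and 307 and 320 with PF-06873600. In SUM159 it was 2212 and 2361 CPM untreated and 686 and 681 with PF-06873600. Under the single compounds not every gene of this list was called lower by edgeR. BUB1 and CCNB1 were not called with palbociclib, nor CCNA2, CCNB1 and PLK1 with indisulam. The part of proliferation in the members' values was not tested. In such bulk samples, fewer cells of a type and less RNA per cell cannot be told apart.

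The members spanned a wide range of levels. Per kilobase of canonical transcript, untreated A549 was led by the ER chaperone HSP90B1 at 738 ± 14.3 CPM per kilobase (mean ± SD, n = 2 libraries). CALR (403 ± 1.68), CANX (391 ± 21.1) and ATF4 (372 ± 19.5) followed, and the levels of CALR and CANX, like those of CANX and ATF4, differed by less than their spread. Untreated SUM159 was led by CALR at 710.3 ± 60.7 CPM per kilobase, ahead of HSP90B1 at 436 ± 7.77. ASNS, asparagine synthetase, was the lowest member in both lines. It had at most 92 counts in a library, and its exons are shared on the same strand with an Ensembl long noncoding RNA (ENSG00000284707), so reads common to both genes would be set aside as ambiguous and its values are uncertain.

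ATF4 itself, at chr22:39519695-39522683 on the plus strand, had its highest level in untreated A549, at 508 and 547 CPM in the 2 libraries. It stood at 464 and 453 CPM with palbociclib, 383 and 394 with indisulam, 276 and 260.1 with the combination and 252 and 249 with PF-06873600. In SUM159 it was at 202 and 203 CPM untreated and 161 and 163 CPM with PF-06873600. The A549 groups did not overlap with the untreated libraries under any treatment, and every SUM159 library was below every A549 library.

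DDIT3, the pro-apoptotic factor CHOP, was at 24.4 and 26.4 CPM in untreated A549 and between 8.88 and 13.4 CPM in the 8 treated A549 libraries. In SUM159 it went the other way, from 4.88 and 5.64 CPM untreated to 9.41 and 8.23 CPM with PF-06873600. DDIT3 overlaps exons of MARS1 and MBD6 on the other strand, and the use of strand in counting is not given in the sources used here. Its exons also overlap those of ENSG00000285133 on the same strand. Reads common to both genes would be set aside as ambiguous, so the DDIT3 values carry that uncertainty too.

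XBP1, the transcription factor downstream of IRE1, was at 290.4 and 306 CPM in untreated A549, 242 and 247 with palbociclib, 177 and 177 with indisulam, 89.6 and 87.7 with the combination and 123 and 117 with PF-06873600. In SUM159 it was at 106 and 101 CPM in untreated and 106 and 101 CPM in treated libraries, which overlapped. HSPA5, the chaperone BiP and a common gauge of ER stress, was at 615 and 589.9 CPM in untreated A549, 627 and 602 with palbociclib, 477 and 502 with indisulam, 375 and 371 with the combination and 493 and 482 with PF-06873600. In SUM159 its level went from 1150.4 and 1060.2 CPM to 799 and 798 CPM. Every treated group other than palbociclib lay below its untreated libraries for HSPA5, in both lines.

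The 3 sensors were less abundant. EIF2AK3 was at 34.7 and 40.4 CPM in untreated A549, 38.9 and 35.0 with palbociclib, 31.2 and 29.0 with indisulam, 32.5 and 35.1 with the combination and 27.6 and 28.3 with PF-06873600, and at 24.7 and 22.2 CPM in untreated and 33.7 and 31.4 CPM in treated SUM159. ERN1 was at 59.2 and 57.9 CPM in untreated A549, 52.9 and 47.0 with palbociclib, 60.7 and 55 with indisulam, 43.2 and 45.8 with the combination and 40.4 and 43.8 with PF-06873600, and went from 20.4 and 20.3 to 58.2 and 58.7 CPM in SUM159. ATF6 was at 85.0 and 99.6 CPM in untreated A549, 85.3 and 80.1 with palbociclib, 77.1 and 83.3 with indisulam, 74.0 and 79.0 with the combination and 59.8 and 60.7 with PF-06873600, and at 90.9 and 84.8 CPM in untreated and 118 and 109.6 CPM in treated SUM159. All 3 sensors were called lower with PF-06873600 in A549 and higher in SUM159 by the edgeR test described below. Of the 13607 genes tested in both lines, 9.3% had this pair of calls.

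**Figure D1:**
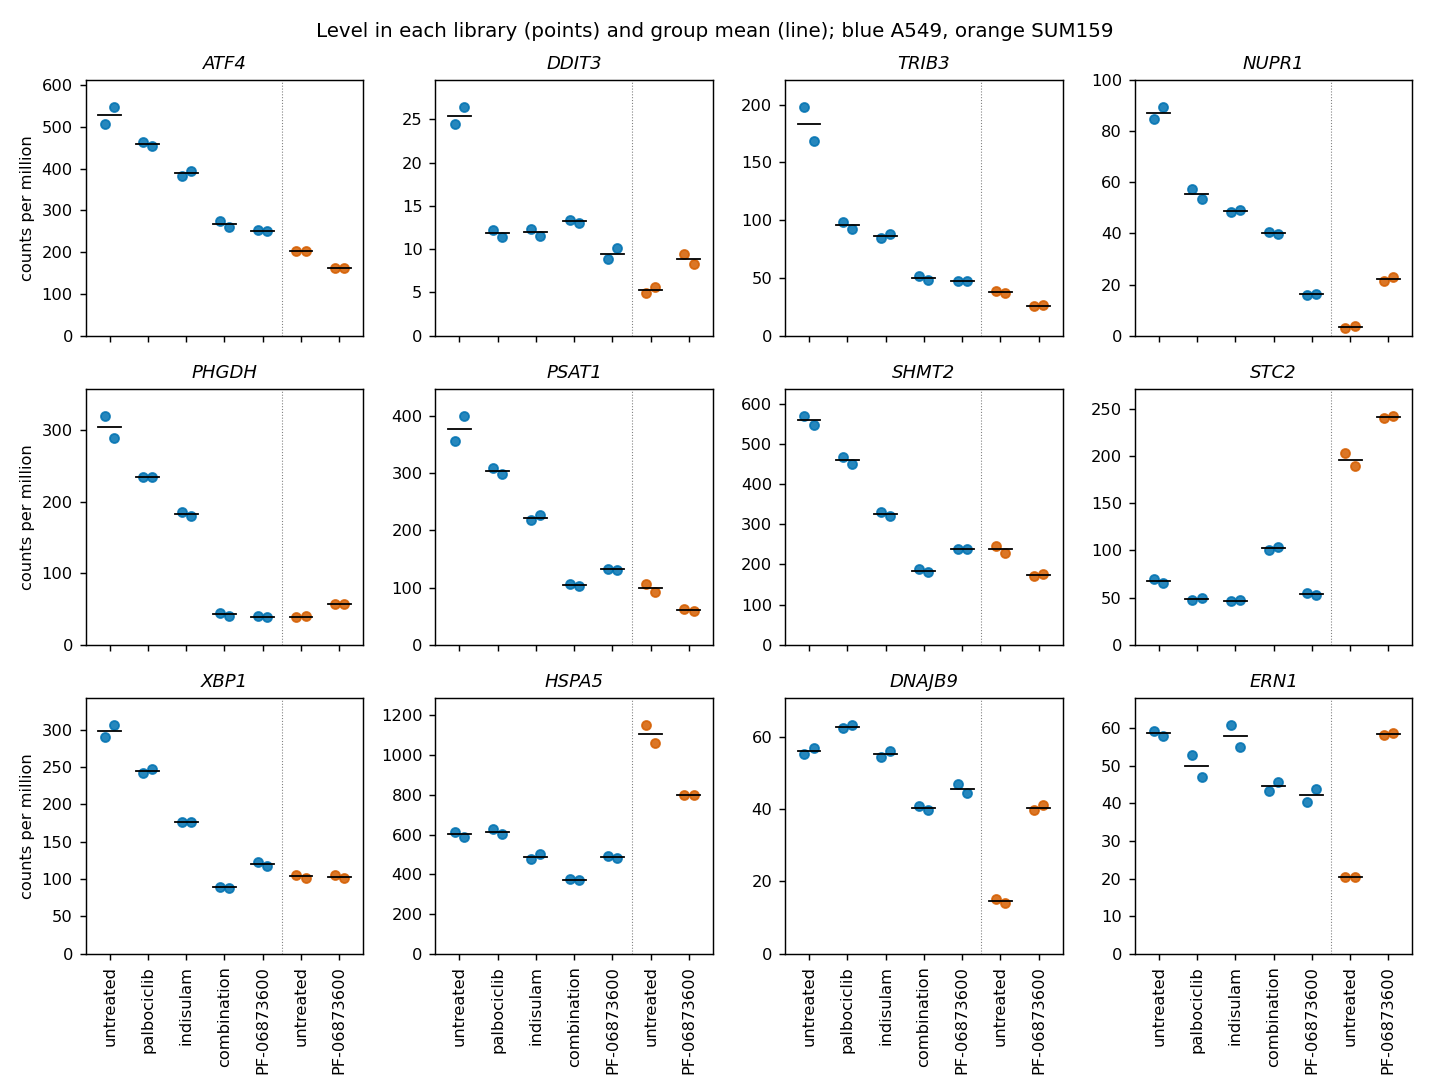
Level in CPM (vertical axis, from 0) of 12 members in each of the 14 libraries (points), with the group mean as a line, by line and treatment (horizontal axis). Among the A549 groups the PHGDH level is lowest with the combination and PF-06873600, near that of untreated SUM159, while ERN1 and DNAJB9 are higher in treated than in untreated SUM159.

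Palbociclib alone lowered stress regulators and amino acid enzymes in A549 and left the chaperones without a call. Of 38 members tested with edgeR's quasi-likelihood test (Benjamini-Hochberg adjusted over all genes, threshold 0.05), 0 were called higher and 15 lower, where 8.30% of all genes tested were called higher and 7.40% lower. At an unadjusted p under 0.05, 5 members were higher, and DESeq2 called 0 higher. The median log2 fold change was -0.16 over the members and -0.01 over all genes. Among the regulators, 8 of 9 fell. DDIT3 fell by the most, to 12.2 and 11.4 CPM (log2 fold change -1.11 ± 0.10, SE, edgeR adjusted p = 5.9e-06). TRIB3, a pseudokinase that restrains AKT, went from 198 and 168 to 98.5 and 92.5 CPM (log2 -0.94 ± 0.08, edgeR adjusted p = 1.69e-06), and the stress-induced chromatin protein NUPR1 from 84.8 and 89.3 to 57.3 and 53.5 CPM (log2 -0.65 ± 0.07, edgeR adjusted p = 1.2e-05). PPP1R15A, which directs the phosphatase that reverses eIF2 phosphorylation, also fell (log2 -0.52 ± 0.08), as did CHAC1, which breaks down glutathione (log2 -0.56 ± 0.11). ATF4 changed little in size (log2 -0.20 ± 0.06, edgeR adjusted p = 0.0254). Of the 6 amino acid and one-carbon enzymes 4 fell, by log2 values from -0.38 (PHGDH) to -0.28 (SHMT2). None of the 13 chaperones was called by edgeR or DESeq2, though 4 were higher at an unadjusted p under 0.05, and HSPA5 had a log2 difference of 0.03 ± 0.05. The calls of ATF4, DDIT4 and JDP2 depended on single libraries, with an edgeR adjusted p for ATF4 of 0.0614 without untreated library 2 and 0.0839 or 0.157 without palbociclib library 1 or 2, for DDIT4 of 0.108 without untreated library 1 and 0.125 or 0.146 without palbociclib library 1 or 2, and for JDP2 of 0.149 without palbociclib library 2. A fit of only the compared groups called 8 members lower in place of 15, and ATF4 was not among them.

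Indisulam alone lowered regulators, enzymes, and some chaperones and degradation genes. It raised 1 member and lowered 25, where 28.0% of all genes were called higher and 17.5% lower. The median log2 fold change was -0.31 over the members and 0.08 over all genes. With TMM factors in place of total counts, the share of higher calls among all called genes was 50.4%, against 61.6%. Levels of TRIB3 went to 84.8 and 87.8 CPM (log2 -1.08 ± 0.08, edgeR adjusted p = 4.5e-08) and those of DDIT3 to 12.4 and 11.6 CPM (log2 -1.09 ± 0.10, edgeR adjusted p = 1.11e-06). HERPUD1, the degradation component shown above with both elements, went from 202 and 214 to 100.3 and 107 CPM (log2 -1.0 ± 0.06, edgeR adjusted p = 7.72e-09). EDEM1, which hands misfolded glycoproteins to degradation, fell as well (log2 -0.74 ± 0.07), and SEL1L and SYVN1, the core of the HRD1 ubiquitin ligase, did not pass the test. Of the enzymes 5 of 6 fell, with SHMT2, the mitochondrial serine hydroxymethyltransferase, at a log2 of -0.78 ± 0.05. The chaperones fell in 6 of 13, by log2 values between -0.35 (HYOU1) and -0.25 (PDIA4). The member that rose was CEBPB, a partner of ATF4 in binding DNA, from 47.2 and 41.1 to 69 and 79.8 CPM (log2 0.75 ± 0.09, edgeR adjusted p = 9.03e-06). Calls lost without 1 library were ATF6 (edgeR adjusted p = 0.377 without untreated library 2, 0.268 or 0.0585 without indisulam library 1 or 2), EIF2AK3 (0.0955 without untreated library 2 or indisulam library 2) and JDP2 (0.065 without untreated library 2, 0.164 or 0.0506 without indisulam library 1 or 2).

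With both compounds nearly the whole module was lower. Of the 38 members 33 fell and 3 rose, where 35.1% of all genes were called higher and 30.0% lower. The median log2 fold change was -0.65 over the members and 0.05 over all genes. The enzymes fell most. PHGDH, which takes the first step of serine synthesis, went from 319 and 289 CPM to 44.5 and 40.7 CPM (7.14-fold lower, log2 -2.84 ± 0.07, edgeR adjusted p = 1.7e-13). PSAT1, which takes the next step, went from 356 and 400.0 to 106 and 103 CPM (log2 -1.86 ± 0.06, edgeR adjusted p = 5.71e-12), PSPH, which takes the last, from 78.0 and 79.3 to 30.3 and 29.0 CPM (log2 -1.41 ± 0.07), and the mitochondrial folate enzymes SHMT2 and MTHFD2 fell by log2 values of -1.60 ± 0.05 and -1.48 ± 0.06. All 6 enzymes, ASNS among them, were thus called lower, where 30.0% of all genes were called lower.

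Among the regulators under the combination, 7 of 9 fell. TRIB3 went to 51.9 and 48.2 CPM (log2 -1.87 ± 0.08, edgeR adjusted p = 4.71e-11), XBP1 to 89.6 and 87.7 CPM (log2 -1.75 ± 0.06, edgeR adjusted p = 2.9e-12) and ATF4 to 276 and 260.1 CPM (log2 -0.98 ± 0.06, edgeR adjusted p = 1.54e-09). All 13 chaperones fell, from -0.88 (HYOU1, an HSP70-like chaperone) to -0.22 (DNAJB11, a BiP co-chaperone) on the log2 scale, with HSPA5 at -0.69 ± 0.05. All 4 degradation genes fell, with HERPUD1 at a log2 of -1.39 ± 0.06 and EDEM1 at -1.26 ± 0.07. The 9 members that carry an ER stress or unfolded protein response element all fell, with a median log2 of -0.69. Of 26 other members with a promoter entry 21 fell and 3 rose, with a median of -0.45. Over all genes, 30.0% were called lower and 35.1% higher. All of the 9 but XBP1 and HERPUD1 are chaperones, and the chaperones fell with or without an element, so these classes also differ in role.

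The 3 members that rose with the combination were CEBPB (log2 0.67 ± 0.09), STC2 and PPP1R15A. STC2, a secreted glycoprotein, was at 69.3 and 65.7 CPM in untreated cells and 101 and 104 CPM with the combination (log2 0.60 ± 0.06, edgeR adjusted p = 1.18e-06), although it was at 47.2 and 50.03 CPM with palbociclib and 45.9 and 47.3 CPM with indisulam. PPP1R15A went from 44.2 and 39.9 to 57.3 and 62.3 CPM (log2 0.51 ± 0.08, edgeR adjusted p = 5.01e-05). EIF2AK3 (log2 -0.15 ± 0.09) and VLDLR, a lipoprotein receptor (log2 0.04 ± 0.06), did not pass the test. Calls lost without 1 library were ATF6 (edgeR adjusted p = 0.077 without untreated library 2, 0.0785 without combination library 1), DNAJC3 (0.143 and 0.0983 without the same libraries), DNAJB11 (0.0986 without untreated library 1, 0.265 without combination library 1) and JDP2 (0.0867 without combination library 1).

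**Figure D2:**
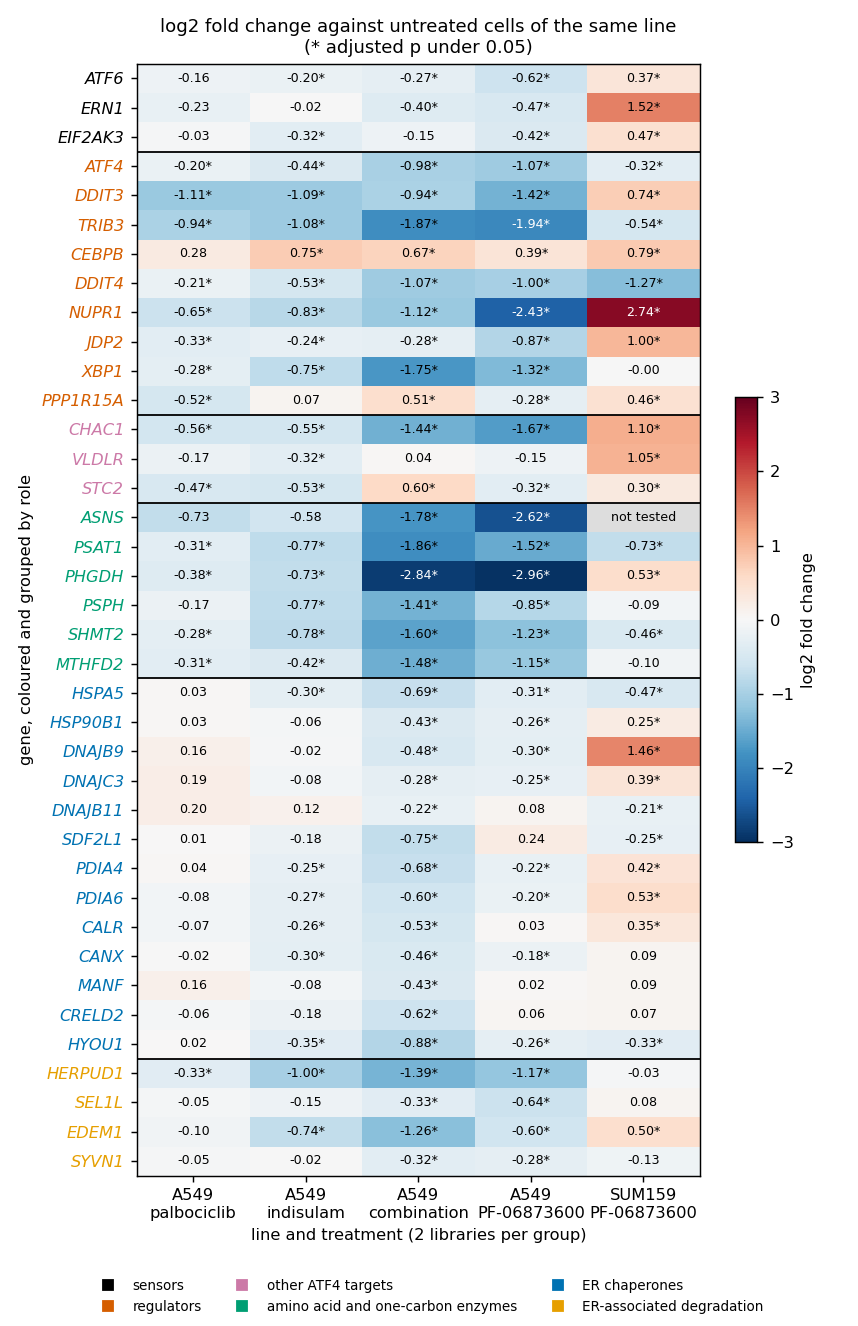
log2 fold change against untreated cells of the same line for the 38 members (vertical axis, grouped and coloured by role) in the 5 treated groups (horizontal axis), 2 libraries per group, with an asterisk where the adjusted p was under 0.05. The combination column is lower in 33 members and the SUM159 column higher in 19 of 37 tested.

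The combination was also compared with each compound alone, which shares libraries with the comparisons above. Against palbociclib, 4 members were higher and 29 lower, where 33.5% of all genes were called higher and 26.9% lower. The median log2 difference was -0.57 over the members and 0.05 over all genes. PHGDH (log2 -2.46 ± 0.07), PSAT1 (-1.54 ± 0.06), XBP1 (-1.47 ± 0.06), SHMT2 (-1.32 ± 0.05) and PSPH (-1.24 ± 0.07) were lowest, and STC2 (1.07 ± 0.07), PPP1R15A (1.03 ± 0.08), CEBPB (0.39 ± 0.09) and VLDLR (0.21 ± 0.06) were higher. VLDLR was not called with TMM factors (adjusted p = 0.145) or DESeq2 (0.138), or in edgeR without palbociclib library 2 (0.129) or combination library 2 (0.0941). DDIT3 differed by 0.16 ± 0.11, with no call (edgeR adjusted p = 0.23), and the 3 sensors were not called by edgeR, at an unadjusted p under 0.05 or by DESeq2. ASNS and SYVN1 lost their calls without palbociclib library 2 (edgeR adjusted p = 0.0671 and 0.0581) or combination library 1 (0.1 and 0.0943).

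Against indisulam, 3 members were higher with the combination and 28 lower, where 22.0% of all genes were called higher and 23.9% lower. The median log2 difference was -0.38 over the members and -0.02 over all genes. All 6 enzymes and 12 of 13 chaperones were lower, with PHGDH at -2.10 ± 0.07, ASNS at -1.19 ± 0.30, PSAT1 at -1.09 ± 0.06, MTHFD2 at -1.05 ± 0.06 and XBP1 at -1.0 ± 0.06. STC2 (1.13 ± 0.07), PPP1R15A (0.44 ± 0.08) and VLDLR (0.36 ± 0.07) were higher. CANX lost its call without either indisulam library (edgeR adjusted p = 0.0524 and 0.166) or either combination library (0.12 and 0.0857), and ASNS (0.0677), SYVN1 (0.0825) and DNAJB11 (0.062) lost theirs without combination library 1.

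Whether the combination differed from the sum of the 2 single compounds on the log2 scale was tested as an interaction. It lay below the sum in 21 members and above it in 5, where 14.5% of all genes were called below and 10.7% above. Below the sum is not always a fall, since CEBPB, among the 21, rose with the combination (log2 0.67 against a sum of 1.03). Among the 5 above it, DDIT3 and NUPR1 fell with the combination (log2 -0.94 and -1.12). The median departure was -0.35 over the members and -0.02 over all genes. PHGDH was furthest below, since the compounds alone gave log2 values of -0.38 and -0.73 and the combination -2.84 (departure -1.72 ± 0.09, edgeR adjusted p = 1.15e-08). PSAT1 (-0.78 ± 0.09), MTHFD2 (-0.74 ± 0.09), XBP1 (-0.71 ± 0.08) and DNAJB9 (-0.62 ± 0.09) followed, and 11 of 13 chaperones lay below the sum. For HERPUD1 the departure was -0.05 ± 0.08 and for TRIB3 0.15 ± 0.11, neither called.

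Those above the sum were STC2 (departure 1.61 ± 0.09, edgeR adjusted p = 2.73e-08), DDIT3 (1.25 ± 0.15, edgeR adjusted p = 3.25e-05), PPP1R15A (0.95 ± 0.11, edgeR adjusted p = 2.74e-05), VLDLR (0.53 ± 0.09) and NUPR1 (0.37 ± 0.10). For DDIT3, each compound alone already reached 12.2 and 11.4 or 12.4 and 11.6 CPM and the combination 13.4 and 13 CPM. None of the 3 sensors was called by edgeR, at an unadjusted p under 0.05 or by DESeq2. Smaller departures depended on single libraries. SDF2L1 lost its call without any of 7 libraries (edgeR adjusted p up to 0.0921), CEBPB without any of 6 (up to 0.206), DNAJC3 without any of 6 (up to 0.135), and PDIA6 and CRELD2 without any of 5 (up to 0.117 and 0.118). NUPR1 lost it without palbociclib library 2 (0.066) or combination library 1 (0.0515), and DDIT4 without combination library 2 (0.0685).

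**Figure D3:**
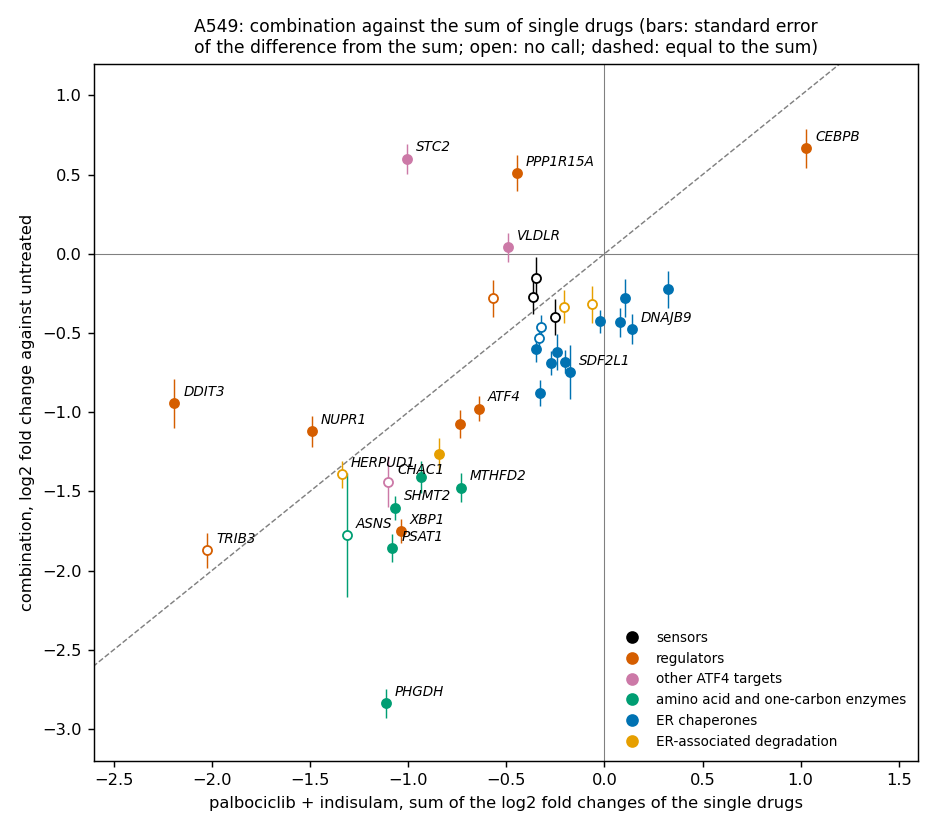
Combination log2 fold change (vertical axis) against the sum of the log2 fold changes of the single compounds (horizontal axis) for each member in A549, coloured by role, with bars for the standard error of the departure, open points for no call, and a dashed line where both are equal. PHGDH lies furthest below the line at a departure of -1.72 and STC2 furthest above it at 1.61.

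PF-06873600 lowered most of the module in A549. Of 38 members 31 fell and 1 rose, where 28.5% of all genes were called higher and 27.8% lower. The median log2 fold change was -0.45 over the members and -0.01 over all genes. All 3 sensors, 8 of 9 regulators, all 6 enzymes and all 4 degradation genes fell. PHGDH went from 319 and 289 to 40.0 and 38.2 CPM (7.79-fold lower, log2 -2.96 ± 0.07, edgeR adjusted p = 4.55e-13). NUPR1 went from 84.8 and 89.3 to 16.1 and 16.3 CPM (log2 -2.43 ± 0.08, edgeR adjusted p = 5.25e-12), TRIB3 to 47.5 and 47.7 CPM (log2 -1.94 ± 0.08) and CHAC1 from 27.8 and 24.0 to 9.04 and 7.36 CPM (log2 -1.67 ± 0.12). ASNS fell by a log2 of -2.62 ± 0.32 on few counts, and ATF4 by -1.07 ± 0.06 (edgeR adjusted p = 1.15e-09). The chaperones moved less. Of 13, 8 fell, and HSPA5 (-0.31 ± 0.05), HSP90B1 (-0.26 ± 0.05) and DNAJB9, an IRE1-binding co-chaperone (-0.30 ± 0.07), had values of similar size, whereas CALR (0.03 ± 0.05) and MANF (0.02 ± 0.07) did not pass the test. CEBPB rose (log2 0.39 ± 0.09). Calls lost without 1 library were DNAJC3 (edgeR adjusted p = 0.308 without untreated library 2, 0.0568 or 0.144 without PF-06873600 library 1 or 2), PPP1R15A and SYVN1 (0.0602 and 0.114 without untreated library 1, 0.1 and 0.0754 without PF-06873600 library 2), CANX (0.0813 or 0.0667 without PF-06873600 library 1 or 2) and PDIA6 (0.0588 without PF-06873600 library 1).

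The lowest mean level in A549 fell most often to the combination. The combination had the lowest mean of the 5 A549 groups in 22 of 38 members, where it was lowest in 25.1% of all genes tested, among them 13 of 13 chaperones, XBP1 and the enzymes PSAT1, PSPH, SHMT2 and MTHFD2. PF-06873600 had the lowest mean in 12 of 38 members, near its share of 26.1% over all genes. These 12 included ATF4, DDIT3, TRIB3, NUPR1, CHAC1, PHGDH and all 3 sensors. Summed over the 13 chaperones, levels were 6965 and 7083 CPM in untreated cells, 4921 and 4928 CPM with the combination, and 6176 and 6137 CPM with PF-06873600. Summed over the 6 enzymes they were 1665 and 1707 CPM, 498 and 486 CPM, and 618 and 616 CPM. These groups differ in time of treatment, 10 and 7 days, and no test was made between them.

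In SUM159 the same agent gave a mixed picture, with more members higher than lower. Of 37 members tested 19 rose and 9 fell, where 38.1% of all genes were called higher and 35.6% lower. The median log2 fold change was 0.25 over the members and 0.02 over all genes. ASNS was filtered out, with 7 and 7 counts in untreated and 3 and 8 in treated libraries. All 3 sensors rose. ERN1 had the largest of these changes, from 20.4 and 20.3 to 58.2 and 58.7 CPM (2.87-fold higher, log2 1.52 ± 0.07, edgeR adjusted p = 7.54e-11), followed by EIF2AK3 (log2 0.47 ± 0.08) and ATF6 (log2 0.37 ± 0.06). NUPR1 rose most, from 3.02 and 3.63 to 21.3 and 22.9 CPM (6.67-fold higher, log2 2.74 ± 0.14, edgeR adjusted p = 1.36e-10). JDP2, a repressor of the AP-1 family, went from 28.5 and 29.1 to 55.4 and 59.3 CPM (log2 1.00 ± 0.07). CHAC1 (log2 1.10 ± 0.25), VLDLR (log2 1.05 ± 0.13) and DDIT3 (log2 0.74 ± 0.15, edgeR adjusted p = 0.00051) rose too.

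ATF4 itself fell in SUM159 (log2 -0.32 ± 0.05, edgeR adjusted p = 6.11e-05), as did DDIT4, an inhibitor of mTORC1 signalling, from 280.2 and 277 to 108 and 123 CPM (log2 -1.27 ± 0.06, edgeR adjusted p = 1.61e-10), PSAT1 (log2 -0.73 ± 0.07), TRIB3 (log2 -0.54 ± 0.08) and SHMT2 (log2 -0.46 ± 0.06). PHGDH rose, from 38.5 and 40.0 to 56.3 and 57.1 CPM (log2 0.53 ± 0.06, edgeR adjusted p = 2.92e-06), so the first step of the serine route and the next went apart. The chaperones split as well. DNAJB9 went from 15.1 and 14.2 to 39.7 and 41.0 CPM (2.76-fold higher, log2 1.46 ± 0.08, edgeR adjusted p = 6.11e-10), and PDIA6, PDIA4, DNAJC3, CALR and HSP90B1 rose by log2 values from 0.53 to 0.25. HSPA5 fell (log2 -0.47 ± 0.07, edgeR adjusted p = 1.71e-05), together with HYOU1 (log2 -0.33 ± 0.06), SDF2L1 (log2 -0.25 ± 0.10) and DNAJB11 (log2 -0.21 ± 0.06). The leukocyte and endothelial markers PTPRC and PECAM1, 2 of 3 markers of other cell types, rose in the same libraries, so that the list summed to 20.3 and 21.4 CPM untreated and 45.8 and 45.5 CPM treated, with ALB at 0 counts in all 4 libraries, and their part in the result was not tested. Calls lost without 1 library were HSP90B1 (edgeR adjusted p = 0.143 or 0.0884 without PF-06873600 library 1 or 2), CALR (0.0588 without PF-06873600 library 1) and SDF2L1 (0.205 without untreated library 1, 0.323 without PF-06873600 library 1).

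Whether SUM159 and A549 responded differently to PF-06873600 was tested in 1 fit of all libraries. The response was higher in SUM159 than in A549 for 30 members and lower for 3, where 25.8% of all genes were called higher and 27.2% lower. The median difference was 0.75 over the members and 0.04 over all genes. NUPR1 had the largest difference, 5.17 ± 0.14 on the log2 scale (edgeR adjusted p = 1.07e-15), followed among members tested in both lines by PHGDH (3.49 ± 0.10, edgeR adjusted p = 1.72e-15), CHAC1 (2.77 ± 0.27), DDIT3 (2.16 ± 0.18, edgeR adjusted p = 4.68e-09) and ERN1 (1.99 ± 0.11). The 30 include ASNS (2.05 ± 0.74), which entered this fit through its A549 counts and was too low in SUM159 for its response there to be measured, so that 29 of 37 members tested in both lines were higher. All 3 sensors, 5 of 5 enzymes tested in both lines and 8 of 9 regulators had a higher response in SUM159. In 16 members the call was lower in A549 and higher in SUM159, as in 9.3% of the 13607 genes tested in both lines, and they included the 3 sensors, DDIT3, NUPR1, CHAC1, PHGDH and DNAJB9. In 7 it was lower in both lines, as in 11.8% of those genes, namely ATF4, DDIT4, HSPA5, HYOU1, PSAT1, SHMT2 and TRIB3. CEBPB was higher in both. For HSPA5 the difference between the lines was -0.16 ± 0.08 and not called (edgeR adjusted p = 0.0917), and the count of 3 lower members (DDIT4, DNAJB11 and SDF2L1) became 1 with TMM factors and 0 with DESeq2, and it ran from 0 to 4 when single libraries were left out. It was 1 or 0 without untreated A549 library 2 (1), PF-06873600 A549 library 2 (0) and PF-06873600 SUM159 library 1 (1). ASNS and CEBPB also lost their calls, ASNS without PF-06873600 A549 library 2 (edgeR adjusted p = 0.0803), untreated SUM159 library 1 (0.0557) or PF-06873600 SUM159 library 2 (0.354), and CEBPB without untreated A549 library 1 (0.0666), PF-06873600 A549 library 2 (0.0799), untreated SUM159 library 2 (0.0794) or PF-06873600 SUM159 library 2 (0.0937).

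**Figure D4:**
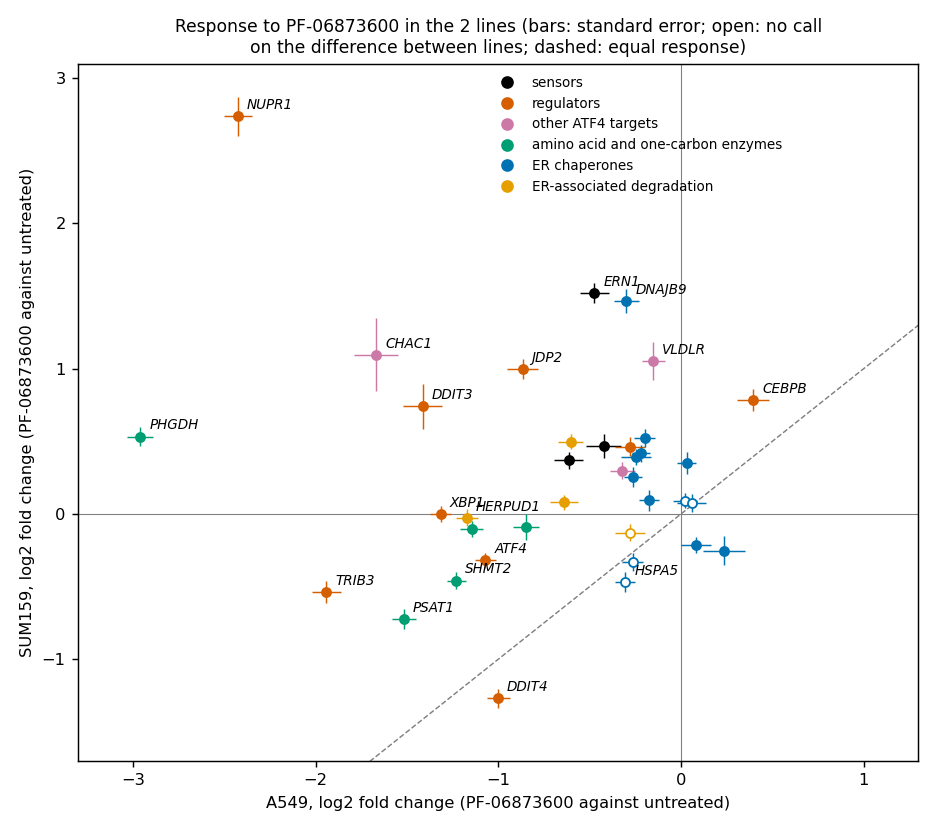
log2 fold change with PF-06873600 in SUM159 (vertical axis) against that in A549 (horizontal axis) for the members tested in both lines, coloured by role, with bars for standard errors, open points for no call on the difference between lines, and a dashed line for an equal response. NUPR1 stands apart at -2.43 in A549 and 2.74 in SUM159, and 16 members are called lower in A549 and higher in SUM159.

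Before treatment the lines already differed in this module. Untreated SUM159 was lower than untreated A549 in 25 members and higher in 8, where 36.8% of all genes were called lower and 41.9% higher. The median log2 difference was -0.69 over the members and 0.08 over all genes. NUPR1 was at 3.02 and 3.63 CPM against 84.8 and 89.3 CPM in A549 (log2 -4.71 ± 0.10, edgeR adjusted p = 1.26e-18), and VLDLR (-3.52 ± 0.09), CHAC1 (-3.49 ± 0.18), PHGDH (-2.96 ± 0.07) and ASNS (-3.60 ± 0.35) were also far lower. The regulators and enzymes were lower in 13 of 15, and the chaperones were split, with 7 of 13 higher and 5 lower. Among those higher were HSPA5 at 1150.4 and 1060.2 against 615 and 589.9 CPM (log2 0.88 ± 0.06), MANF at 0.88 ± 0.06, DNAJB11 at 1.07 ± 0.07 and CALR at 0.82 ± 0.06. DNAJB9 (-1.94 ± 0.07), HSP90B1 (-0.76 ± 0.05), PDIA6 (-0.40 ± 0.06), CANX (-0.35 ± 0.06) and PDIA4 (-0.21 ± 0.05) were lower. STC2 was the member most above A549 (log2 1.54 ± 0.06). The untreated A549 libraries also enter every A549 comparison with untreated cells, and the untreated SUM159 libraries the response in SUM159, so a low starting level and a rise with treatment are not independent values.

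The wider pathway was read from 3 further lists. Of 26 tested genes of the ATF4 and integrated stress response list, palbociclib raised 2 and lowered 13, where 8.30% of all genes were called higher and 7.40% lower. Indisulam raised 6 and lowered 15 (28.0% and 17.5% of all genes), and the combination raised 7 and lowered 17 (35.1% and 30.0%). PF-06873600 raised 6 and lowered 18 in A549 (28.5% and 27.8%) and raised 13 and lowered 9 in SUM159 (38.1% and 35.6%). PCK2, the mitochondrial phosphoenolpyruvate carboxykinase, went from 151 and 134 CPM to 19.0 and 18.3 CPM with the combination (log2 -2.93 ± 0.09, edgeR adjusted p = 1.03e-12) and to 26.2 and 25.7 CPM with PF-06873600 (log2 -2.46 ± 0.08). In A549, ALDH1L2, a mitochondrial folate enzyme, fell with indisulam (log2 -1.34 ± 0.09), the combination (-2.27 ± 0.10) and PF-06873600 (-1.69 ± 0.09). SLC7A11, the cystine transporter, fell with the same treatments (-1.51 ± 0.07, -2.00 ± 0.07 and -0.68 ± 0.07). CBS, of the transsulfuration route, fell with palbociclib (-0.64 ± 0.13), indisulam (-1.09 ± 0.14), the combination (-2.83 ± 0.17) and PF-06873600 (-2.02 ± 0.16). In the same cells ATF3, a stress-induced repressor, went from 9.52 and 9.87 CPM to 55.8 and 59.5 CPM with the combination (log2 2.57 ± 0.10, edgeR adjusted p = 1.99e-11), 2.19 ± 0.16 above the sum of the single compounds. GDF15, a secreted stress cytokine, rose with indisulam (log2 1.67 ± 0.10), the combination (1.05 ± 0.10) and PF-06873600 (0.97 ± 0.10) in A549. Some genes of this list thus rose where most fell.

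In SUM159, GDF15 went from 0.482 and 0.564 to 16.5 and 18.2 CPM (log2 5.04 ± 0.21, edgeR adjusted p = 1.96e-11), ADM2, a peptide hormone, from 0.181 and 0.689 to 2.92 and 4.07 CPM (log2 3.02 ± 0.39) and ALDH1L2 from 0.543 and 0.626 to 5.14 and 4.35 CPM (log2 3.0 ± 0.28). ADM2 lay at the limit of 3 counts in untreated SUM159 library 1. The size of its change, and of its difference between the lines given below, is therefore uncertain. SLC7A5, the large neutral amino acid transporter, fell from 503 and 456 to 97.5 and 98.0 CPM (log2 -2.29 ± 0.06, edgeR adjusted p = 3.08e-13), whereas in A549 it was at 833 and 727 CPM untreated and 919 and 934 CPM treated. The response in SUM159 was above that in A549 by 5.69 ± 0.44 for ADM2 and 4.68 ± 0.27 for ALDH1L2, and below it by a difference of -2.54 ± 0.09 for SLC7A5 (log2 scale, edgeR adjusted p = 2.4e-09, 4.26e-11 and 1.16e-13).

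Of 11 genes for eIF2 kinases and the eIF2 exchange factor, 8 fell and 0 rose with PF-06873600 in SUM159, where 35.6% of all genes were called lower and 38.1% higher (1 of the 11 rose at an unadjusted p under 0.05 in edgeR), with EIF2B5, a subunit of the exchange factor, at a log2 of -1.0 ± 0.06. In A549, 3 fell and 3 rose with PF-06873600, near the shares over all genes of 27.8% and 28.5%, while 6 fell and 2 rose with the combination (30.0% and 35.1% of all genes) and 2 fell and 3 rose with indisulam (17.5% and 28.0%). With palbociclib none was called by edgeR, with 1 higher and 0 lower at an unadjusted p under 0.05. Of 40 genes for ER translocation, folding and degradation, palbociclib lowered 4 and raised 2, where 7.40% of all genes were called lower and 8.30% higher, and 34 were not called. Indisulam lowered 20 and raised 1 (17.5% and 28.0% of all genes), and the combination lowered 27 and raised 5 (30.0% and 35.1%). PF-06873600 lowered 20 and raised 6 in A549 (27.8% and 28.5%) and lowered 9 and raised 23 in SUM159 (35.6% and 38.1%). With the combination in A549, MBTPS2, DNAJC10 and SSR2 of this list fell most (log2 -0.99 ± 0.08, -0.94 ± 0.06 and -0.93 ± 0.06). WFS1, an ER membrane protein, was the gene that indisulam raised. It rose in A549 under each treatment, with log2 values of 0.77 ± 0.12 for palbociclib, 0.95 ± 0.12 for indisulam, 1.57 ± 0.12 for the combination and 1.28 ± 0.12 for PF-06873600.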

How the data were processed

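RNA of 14 libraries was sequenced by the authors as single-end reads of 65 bases from strand-specific mRNA libraries and aligned to GRCh38, and the submitters' processing notes name HISAT2 2.2.1 and HTSeq. The annotation release and the strand setting are not given in the sources used here. The deposited values are raw read counts for each of 60683 Ensembl gene identifiers, with 0 reads marked as duplicates. Between 4.31% and 7.06% of reads fell on no gene and 3.55% to 4.21% were ambiguous, and these stayed out of the library sizes. Symbols and coordinates came from GENCODE release 44 (60370 identifiers).

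Libraries were grouped by the sample labels and scaled by total count, after the study's size factor. Genes kept by filterByExpr (15780 in A549, 15055 in SUM159, 17279 in both) were tested with edgeR 4.0.16 in R 4.3.3 (quasi-likelihood F test, Benjamini-Hochberg over all genes tested, threshold 0.05), with 10 libraries in the A549 fit, 4 in the SUM159 fit and 14 for comparisons between lines. Each standard error was obtained from the log2 fold change and the F statistic of its test. An exact permutation test of 2 against 2 libraries cannot give a two-sided p under 0.33. The scripts were tested on simulated data. Other tools were DESeq2 1.42.0, Python 3.11.15 and pandas 2.3.3.

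The members, the further lists and the motifs were chosen with earlier results of these data known. Named are ATF4, DDIT3, XBP1, HSPA5 and the 3 sensors throughout, then any member, chiefly the called members with the largest changes and no overlap between groups, and up to 3 genes in each direction from the further lists. Alternatives were TMM factors, DESeq2, a fit of the compared groups alone, no filter on low counts or a filter at a mean of 50, the replicate number as a block, and each library left out.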

Additional observations from a re-analysis of the deposited data

Results flagged for a closer look

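The response to PF-06873600 differed between SUM159 and A549 in 33 of 38 members by an interaction term (edgeR, adjusted over all genes tested), and all values here are the log2 fold change in SUM159 minus that in A549. Among the sensors the difference was 1.99 for ERN1, 0.99 for ATF6 and 0.89 for EIF2AK3. Among the regulators it was 5.17 for NUPR1, 2.16 for DDIT3, 1.86 for JDP2, 1.41 for TRIB3, 1.31 for XBP1, 0.75 for ATF4, 0.74 for PPP1R15A, 0.39 for CEBPB and -0.27 for DDIT4. For ATF4 and TRIB3 both lines fell, so the positive difference stands for a smaller fall in SUM159. The enzymes differed by 3.49 for PHGDH, 1.04 for MTHFD2, 0.79 for PSAT1, 0.77 for SHMT2 and 0.76 for PSPH. Of these only PHGDH was called higher in SUM159. PSAT1 and SHMT2 fell in both lines, and MTHFD2 and PSPH fell in A549 without a call in SUM159. The fitted value for ASNS was 2.05, but this gene was filtered out of the SUM159 fit, with 3 to 8 counts in a library, and entered through its A549 counts, so its response in SUM159 was not measured. CHAC1 differed by 2.77, VLDLR by 1.2 and STC2 by 0.62. In the degradation machinery the values were 1.15 for HERPUD1, 1.10 for EDEM1 and 0.72 for SEL1L. Of the chaperones, DNAJB9 differed by 1.76, PDIA6 by 0.72, DNAJC3 by 0.64, PDIA4 by 0.63, HSP90B1 by 0.51, CALR by 0.32, CANX by 0.27, DNAJB11 by -0.29 and SDF2L1 by -0.49. The lines were grown in different media, and line and medium cannot be told apart.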

How the results depend on the processing

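No call of a member changed direction under any alternative run. Of 293 called member values, TMM factors kept 290 past the threshold, DESeq2 277, no filter 289 and the replicate block 292, and a fit of only the compared groups kept 248 of 265. Members called higher with palbociclib were 0, and 1 with no filter on low counts or with the replicate block with palbociclib numbers crossed (added after the data were seen). Members called lower with palbociclib were 15, and 8 in a fit of only the compared groups. Members with a lower response in SUM159 were 3, with TMM factors 1 and with DESeq2 0. Leaving out single libraries gave 0 to 1 higher with palbociclib (1 without either untreated library), 1 to 2 higher with PF-06873600 in A549 (2 without untreated library 1) and 0 to 4 with a lower response in SUM159. Replicate numbers are shared by the labels but pair no samples. The correlation of same-numbered libraries ran from -0.27 for palbociclib with untreated to 0.23 for indisulam with untreated, and the replicate block moved the members below the sum of single compounds from 21 to 20 (CEBPB, adjusted p = 0.0575). Over all genes, DESeq2 called 617 lower with palbociclib against 1168, 2742 higher with indisulam against 4420, and 1494 below the sum against 2281. The cause of these changes was not tested. ASNS was too low to be tested in the SUM159 fit.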

Other observations

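The members with an ER stress or unfolded protein response element upstream and those without could also be read side by side in SUM159. With PF-06873600, 2 of 9 members with such an element rose and 3 fell, where 38.1% of all genes were called higher and 35.6% lower, with a median log2 fold change of -0.00, while of 25 other members tested with a promoter entry 16 rose and 5 fell, with a median of 0.42. In A549 with the same agent, 6 of 9 fell with a median of -0.26, and 22 of 26 others fell with a median of -0.54, where 27.8% of all genes were called lower. All members with an element but XBP1 and HERPUD1 are chaperones, so the classes also differ in role. No test was made between these classes.

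The genes of the eIF2 machinery were split between the untreated lines, with 6 of 11 called higher in SUM159 and 3 lower (edgeR, adjusted over all genes tested), where 41.9% of all genes were called higher and 36.8% lower. EIF2B3, a subunit of the exchange factor, was higher in untreated SUM159 by a log2 of 1.98 ± 0.09 (SE), EIF2AK4, the amino acid sensing kinase GCN2, by 1.80 ± 0.07, and EIF2S1, the eIF2 subunit that these kinases phosphorylate, by 1.40 ± 0.07. DELE1, which relays mitochondrial stress to the eIF2 kinases, was lower (-1.04 ± 0.07), as were PPP1R15B, a phosphatase subunit that acts on eIF2 (-0.37 ± 0.06), and EIF2AK1, the kinase HRI (-0.36 ± 0.06).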
